A study of Chrysanthemum x morifolium with 6 samples.

Results

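A large set of sequence clusters from chrysanthemum roots had a named ethylene-responsive transcription factor as best Swiss-Prot match. The members are clusters that the authors placed in the AP2-EREBP family and whose Swiss-Prot description is an ethylene-responsive transcription factor or a pathogenesis-related genes transcriptional activator. Names made of ERF and 3 digits and AP2-like names were left out. There were 241 such clusters among 515 AP2-EREBP clusters and 10744 clusters of transcription factors and other regulators. They carried 33 protein names: the ethylene-responsive factors numbered 1, 1A, 1B, 2, 3, 4, 5, 7, 8, 11, 12, 13 and 15, the oxygen-sensing and other RAP2 proteins, the cytokinin response factors (CRF), the tomato proteins PTI5 and PTI6, and a few others. No measured value entered the choice. Of the 241 clusters, 164 matched an Arabidopsis entry and 232 carried the AP2 DNA-binding domain in the deposited annotation. The names are those of the nearest database protein and do not establish orthology.

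The study sequenced RNA from roots of Chrysanthemum x morifolium, cultivar jinba, to ask how they respond to mild salt. Seedlings 1 month old had been raised for 30 days under a photoperiod of 16 h. The control group received purified water and the salt group received water with 100 mM salt, and watering was controlled for 2 days in the course of the treatment. Roots were collected 24 h after treatment, with 3 libraries per group that the labels give as biological replicates. The labels do not name the salt or say whether roots of several plants were pooled. Both groups are 1 cultivar at 1 time and 1 dose.

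In flowering plants, ethylene binds receptors in the endoplasmic reticulum, and its perception stabilises the transcription factor EIN3, which switches on genes of the ERF family. ERF proteins bind GCC-box promoter elements through the AP2 domain. Some activate and others, which carry an EAR motif, repress, so the family can turn the same promoters up or down. Related branches respond to oxygen (the RAP2-12 branch, which is destroyed through its N-terminus when oxygen is present), to cytokinin (CRF) or to water deficit (the DREB type, which includes TINY and RAP2-4).

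The 3 control libraries held 15.9 to 20.1 M fragments and the 3 salt libraries 12.8 to 16.1 M (M for mega), by the recovered depth. Levels are CPM, counts-per-million of the effective library size, unless FPKM (per kilobase of cluster) is named, and a fold change is salt against control on the log2 scale. The leading cluster of a name is the tested one with the highest mean CPM. A cluster is said to rise or fall where the edgeR adjusted p was under 0.05. Clusters whose best match in the NR protein database lies outside seed plants took 0.542 to 0.570% of regulator counts in control and 2.67 to 4.06% in salt. All 241 members had a seed plant match. Members took 7.35 to 7.57% of regulator counts in control. Salt 1 stood apart from the other salt libraries, with 6.93% against 6.32 and 6.33% and with the lowest share of matches outside seed plants. Library sizes were also scaled on the 8219 regulator clusters with a seed plant match, members included, instead of on all clusters. This seed plant scaling centres the regulators largely on themselves, so a median near 0 under it is partly built in. Under it the median of all tested regulators moved by 0.42 on the log2 scale, and its values are given beside the main ones. A direction given under 5 scalings covers both scalings and library sizes from DESeq2 size factors, from depth alone and from the column sums of the regulator table. Markers of root identity were present, among them clusters matched to SHORT-ROOT and SCARECROW. The summed level of 35 root marker clusters was 129.9 to 142 CPM in control and 99.7 to 107 CPM in salt, and 8 of 21 tested fell and 1 rose, with 4 and 2 under the seed plant scaling, where the ratio of the summed level, salt over control, was 0.984 in place of 0.753. That of 59 shoot and flower marker clusters was 115 to 126 CPM and 64.6 to 66.6 CPM, a ratio of 0.543. It was 0.710 under the seed plant scaling. Of 24 tested, 8 fell and 3 rose, and 5 and 5 under the seed plant scaling. In all, 38.1% of root and 33.3% of shoot markers fell, near the 34% of regulators with a seed plant match. Under the seed plant scaling 19% and 20.8% fell, against 22.4%. Rises were 4.76% and 12.5%, against 14.9%, under the scaling on all clusters. The part of either marker list in the results was not tested, and in whole roots fewer cells of a type and less RNA per cell cannot be told apart.

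Of the 241 clusters, 175 had enough counts to be tested, 29 rose and 65 fell in salt, and 81 did not pass. The background over all 5284 tested regulators was 53.3% called, 23.8% higher and 29.6% lower, and over the 4513 with a seed plant match 14.9% higher and 34% lower. Against the seed plant regulators, the members' 16.6% higher and 37.1% lower lie near the background. The median log2 fold change was -0.41 among tested members and -0.38 among all tested regulators. At least 2-fold changes numbered 12 up and 42 down, against 20.5% and 22.6% over all regulators and 11.3% and 25.9% over those with a seed plant match. Under the seed plant scaling 47 of 173 rose and 45 fell (31.1% and 19.3% over all regulators, 22% and 22.4% over those with a seed plant match), and the median turned to 0.02. All 29 that rose also rose there, 45 of the 65 that fell also fell, 19 lost the call and 1 was not tested there. Without salt 1, 27 of 182 rose and 69 fell. Among AP2-EREBP clusters outside the set, 50 of 171 rose and 38 fell. The 66 untested members were rare, with a median of 20.1 counts over the 6 libraries, and 8 of them had 0 counts in all 6. Of the tested ones, 117 exceeded the count cutoff of 0.616 CPM in every library, 32 reached it in 3 libraries of control only and 13 in 3 of salt only. Such clusters made up 18 of the 65 that fell and 3 of the 29 that rose, and they could be tested only because 1 group was high. The 18 falls were in RAP2-7 (4), RAP2-3 and ERF5 (3 each), PTI6 and ABR1 (2 each), and ERF1B, RAP2-4, RAP2-11 and LEP (1 each). The 3 rises were in ERF2 (2) and ERF1B (1).

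**Figure D1:**
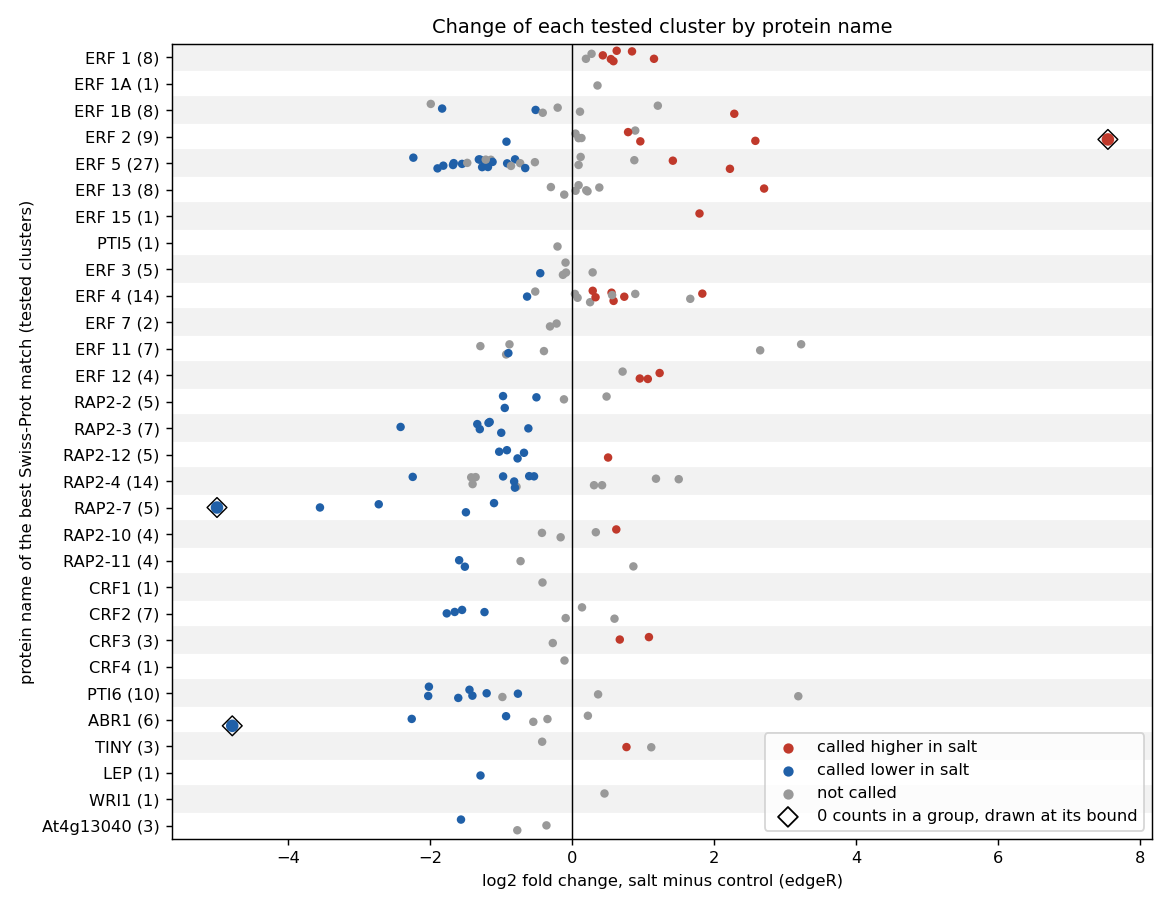
Each point is a tested cluster, placed by its log2 fold change (salt minus control, edgeR) and by the protein name of its best Swiss-Prot match, with the number of tested clusters in parentheses. Red points rose, blue points fell and grey points did not pass, and the 3 clusters at 0 counts in a group are drawn at their bound. All tested RAP2-3 and RAP2-7 clusters lie to the left of 0, and 3 of 7 and 4 of 5 of these passed the count filter through the control libraries only. All tested ERF1 and ERF12 clusters lie to the right.

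The oxygen-sensing RAP2 branch held the members with the highest levels per kilobase, and most of its clusters fell under the scaling on all clusters. RAP2-2, RAP2-3 and RAP2-12 activate genes of low-oxygen metabolism in Arabidopsis, and their stability depends on oxygen. Of 17 tested clusters, 14 fell, 1 rose and 2 were not called. Under the seed plant scaling 8 fell and 2 rose, and the summed level of the branch was lower in salt under all 5 scalings compared. That sum was mostly RAP2-3, with a mean of 1018 of 1345 CPM in control. Over the 5 scalings, the ratio of the summed level, salt over control, was 0.51 to 0.73 for RAP2-3. It was 0.68 to 0.96 for RAP2-12 and 0.75 to 1.06 for RAP2-2, whose direction thus depends on the scaling. RAP2-3 alone made up 22.4% of the members' summed FPKM in control and 14.5% in salt. The most abundant cluster, Cluster-71316.162522, had 548, 581 and 532 CPM in control and 384, 361 and 339 CPM in salt (log2 fold change -0.62, SE 0.06, edgeR adjusted p = 0.000566). The second, Cluster-71316.163378, had 443, 484 and 422 CPM against 184, 205 and 208 CPM (log2 fold change -1.18, SE 0.08, edgeR adjusted p = 0.000121). The 3 control libraries stood above the 3 salt libraries for both, and both falls held under the seed plant scaling (log2 fold changes -0.23 and -0.79). Both have their best NR match in the same tomato protein, and their summed counts gave log2 fold change -0.84, SE 0.06, edgeR adjusted p = 3.6e-06. The other 5 tested RAP2-3 clusters were rarer and fell by 1.00 to 2.42 on the log2 scale, of which 3 lost the call under the seed plant scaling and 3 passed the count filter through the control libraries only.

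RAP2-2 and RAP2-12 did not move as evenly. The leading RAP2-2 cluster, Cluster-71316.164587, had 133, 133 and 129 CPM in control and 141, 109.8 and 114 CPM in salt, the groups overlapped, and it was not called (log2 fold change -0.12, SE 0.10, edgeR adjusted p = 0.373). It rose under the seed plant scaling (log2 fold change 0.27, edgeR adjusted p = 0.028), and without salt 1, the highest library, it fell (-0.25, edgeR adjusted p = 0.0053). The next RAP2-2 cluster, Cluster-71316.146263, had 26.8, 31.1 and 29.6 CPM and 15.4, 15.3 and 14.7 CPM and fell (log2 fold change -0.95, SE 0.09, edgeR adjusted p = 0.000458). The leading RAP2-12 cluster, Cluster-71316.150070, had 55.6, 56 and 50.0 CPM in control and 40.8, 33.7 and 20.3 CPM in salt (log2 fold change -0.77, SE 0.24, edgeR adjusted p = 0.0319). Salt 3 was the lowest of the 6, and the call was lost under the seed plant scaling and when any 1 control library was left out (edgeR adjusted p = 0.067 to 0.091). By contrast, Cluster-71316.145475 rose from 21.3, 23.6 and 16.6 CPM to 29.2, 26.8 and 31.5 CPM (log2 fold change 0.51, SE 0.15, edgeR adjusted p = 0.0250), a call lost without control 1, control 3, salt 2 or salt 3 (edgeR adjusted p = 0.051 to 0.084). It shares its NR match with 4 other clusters, and their sum was 105, 112 and 98.4 CPM in control and 90.3, 77.3 and 81.5 CPM in salt (log2 fold change -0.34, SE 0.08, edgeR adjusted p = 0.00446), a fall lost under the seed plant scaling, where the log2 fold change was 0.04.

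ERF5, a GCC-box activator in Arabidopsis and tobacco, was the name with most tested clusters, 27, of which 16 fell and 2 rose, with 12 and 3 under the seed plant scaling. Over all clusters of the name the summed level was 319.9 ± 10.8 CPM in control and 173 ± 18.1 CPM in salt (SD, n = 3), lower in salt under all 5 scalings. The clusters divided by their NR match. Of 16 tested clusters that matched the Artemisia annua factor 5, 13 fell and 0 rose, with log2 fold changes from -2.24 to -0.80. The leading one, Cluster-71316.165377, had 54.3, 58.8 and 57.3 CPM in control and 24.1, 21.6 and 25.1 CPM in salt (log2 fold change -1.27, SE 0.08, edgeR adjusted p = 0.000129). Summed over all 18 clusters of that match the level was 253, 267 and 245 CPM in control and 119.8, 99.6 and 100.2 CPM in salt (log2 fold change -1.26, SE 0.08, edgeR adjusted p = 2.8e-06). The groups did not overlap, and the sum also fell under the seed plant scaling (log2 fold change -0.87).

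The ERF5 clusters that rose matched a Prunus mume protein in NR. Cluster-71316.69548 had 3.00, 1.89 and 2.46 CPM in control and 10.1, 11.9 and 12.3 CPM in salt (log2 fold change 2.22, SE 0.21, edgeR adjusted p = 0.000464). Cluster-71316.307070 had 2.00, 2.68 and 1.88 CPM against 8.14, 5.57 and 3.88 CPM (log2 fold change 1.42, SE 0.33, edgeR adjusted p = 0.0112). Their sum was 4.99, 4.57 and 4.34 CPM and 18.3, 17.5 and 16.2 CPM (log2 fold change 1.90, SE 0.12, edgeR adjusted p = 2.7e-06). Every salt library was above every control library in each. The difference between the 2 subsets was noticed in the data and was not tested. The remaining 9 tested ERF5 clusters held 3 that fell, and the most abundant of them, Cluster-71316.170907, was not called, with 26.7, 24.6 and 24.8 CPM in control and 32.6, 23.7 and 26.5 CPM in salt (log2 fold change 0.12, SE 0.13, edgeR adjusted p = 0.468), although it rose under the seed plant scaling.

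Clusters named for ERF1 of tomato and ERF2 moved the other way. Of 8 tested ERF1 clusters 6 rose and 0 fell, and of 9 tested ERF2 clusters 4 rose and 1 fell. Under the seed plant scaling 7 and 6 rose and 0 fell. Of the 4 ERF2 rises, 2 passed the count filter through the salt libraries only, those of Cluster-71316.152927 and Cluster-71316.189141. The summed level of ERF1 was 89.8 ± 6.15 CPM in control and 131 ± 5.56 CPM in salt (SD, n = 3), and that of ERF2 was 40.4 ± 3.18 CPM in control and 61.7 ± 4.54 CPM in salt (SD, n = 3), both higher in salt under all 5 scalings. The leading ERF1 cluster, Cluster-71316.158462, had 28.4, 28.9 and 28.9 CPM in control and 39.8, 36.5 and 40.1 CPM in salt (log2 fold change 0.43, SE 0.07, edgeR adjusted p = 0.00320). Cluster-71316.78368 had 7.58, 8.40 and 7.34 CPM against 19.5, 15.5 and 16.9 CPM (log2 fold change 1.15, SE 0.13, edgeR adjusted p = 0.000815). All 4 ERF1 clusters matched to the Artemisia annua factor 6 rose, and their sum went from 31.8, 33.8 and 29.8 CPM to 62.6, 52.6 and 51.3 CPM (log2 fold change 0.80, SE 0.10, edgeR adjusted p = 9.1e-05).

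The ERF2 cluster Cluster-71316.152927 had 0 counts in every control library and 12.1, 10.5 and 8.49 CPM in salt, at least 187-fold higher against a floor of 3 counts over the control group. It was called higher (edgeR adjusted p = 0.000252) and was also called under the 4 other scalings. It shares its NR match, an Artemisia annua AP2/ERF factor, with 7 other ERF1 and ERF2 clusters, among which 1 ERF2 cluster, Cluster-71316.178070, fell from 6.17, 8.05 and 7.98 CPM to 4.32, 2.78 and 4.61 CPM (log2 fold change -0.92, SE 0.25, edgeR adjusted p = 0.0185). That fall was lost under the seed plant scaling (-0.54, edgeR adjusted p = 0.103) and without control 2 or control 3 (edgeR adjusted p = 0.069 and 0.067). The sum over the 8 clusters was 66.7, 71.6 and 63 CPM in control and 93.1, 88.5 and 94.8 CPM in salt (log2 fold change 0.46, SE 0.07, edgeR adjusted p = 0.000396). Reads can be shared between near-identical clusters, and this was not measured here, so the count of a single one is uncertain. The leading ERF2 cluster, Cluster-71316.161565, had 12.1, 10.1 and 9.98 CPM and 18.6, 19.6 and 17.4 CPM (log2 fold change 0.79, SE 0.12, edgeR adjusted p = 0.00214), and Cluster-71316.189141, a rare one, had 0.176, 0.199 and 0.235 CPM and 1.20, 1.42 and 1.13 CPM (log2 fold change 2.58, SE 0.41, edgeR adjusted p = 0.00255). The single ERF1A cluster had 17.1, 20.8 and 15.4 CPM and 26.9, 21.9 and 18.9 CPM, with salt 3 inside the control range, and was not called (log2 fold change 0.35, SE 0.17, edgeR adjusted p = 0.130), though it rose under the seed plant scaling (0.73, edgeR adjusted p = 0.0073).

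ERF1B, a direct EIN3 target that joins ethylene and jasmonate signals in Arabidopsis, had 1 rise and 2 falls among 8 tested clusters, and 2 rises and 1 fall under the seed plant scaling. In the first count, the rise passed the count filter through the salt libraries only, and 1 of the 2 falls through the control libraries only. The leading cluster, Cluster-71316.48218, had 19.3, 20.4 and 17.4 CPM in control and 13.9, 13.8 and 12.2 CPM in salt (log2 fold change -0.51, SE 0.11, edgeR adjusted p = 0.00763), a fall lost under the seed plant scaling (-0.13). Cluster-71316.13493 rose from 0.822, 0.547 and 0.352 CPM to 2.48, 2.52 and 3.48 CPM (log2 fold change 2.28, SE 0.41, edgeR adjusted p = 0.00397). A pair of clusters with the same NR match moved in opposite ways between the salt libraries. Cluster-71316.148122 had 11.5, 12.8 and 12.6 CPM in control and 0, 3.11 and 6.23 CPM in salt, Cluster-71316.140364 had 2.94, 2.88 and 3.35 CPM and 6.16, 3.69 and 0 CPM, and neither was called, although the first was lower without salt 1 (-1.42, edgeR adjusted p = 0.010). Where 1 of them was at 0, the other was at its highest salt value. Their sum, 14.4, 15.7 and 15.9 CPM in control and 6.16, 6.80 and 6.23 CPM in salt, varied little within a group and fell (log2 fold change -1.25, SE 0.12, edgeR adjusted p = 2.2e-05).

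Of 8 tested ERF13 clusters 1 rose and 7 were not called, while 3 of 7 rose under the seed plant scaling. The leading cluster, Cluster-71316.145740, one of the more abundant members at 202 ± 10.3 FPKM in control and 173 ± 30.1 FPKM in salt (SD, n = 3), was not called (log2 fold change -0.11, SE 0.13, edgeR adjusted p = 0.498), although it fell without salt 1 (-0.26, edgeR adjusted p = 0.031). Its direction turned to 0.27 under the seed plant scaling, not called, and its sum with the other cluster of its NR match was called higher there (0.32, edgeR adjusted p = 0.0145). The cluster that rose was Cluster-71316.67598, whose NR match is ORA of Artemisia annua, a regulator of artemisinin synthesis in that species. It had 1.64, 0.944 and 1.23 CPM in control and 7.93, 8.93 and 8.09 CPM in salt (log2 fold change 2.70, SE 0.25, edgeR adjusted p = 0.000421). The sum of the 4 ORA-matched clusters was 6.81, 5.96 and 5.46 CPM and 13.9, 14 and 13.7 CPM (log2 fold change 1.19, SE 0.13, edgeR adjusted p = 4.6e-05). The single ERF15 cluster, Cluster-71316.94276, rose from 0.705, 1.34 and 0.646 CPM to 2.48, 3.17 and 3.80 CPM (log2 fold change 1.79, SE 0.40, edgeR adjusted p = 0.00921). The single PTI5 cluster, named for a tomato partner of the resistance kinase Pto, had 3.64, 4.02 and 2.88 CPM and 3.61, 2.59 and 2.91 CPM and was not called (log2 fold change -0.21, SE 0.26, edgeR adjusted p = 0.518).

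**Figure D2:**
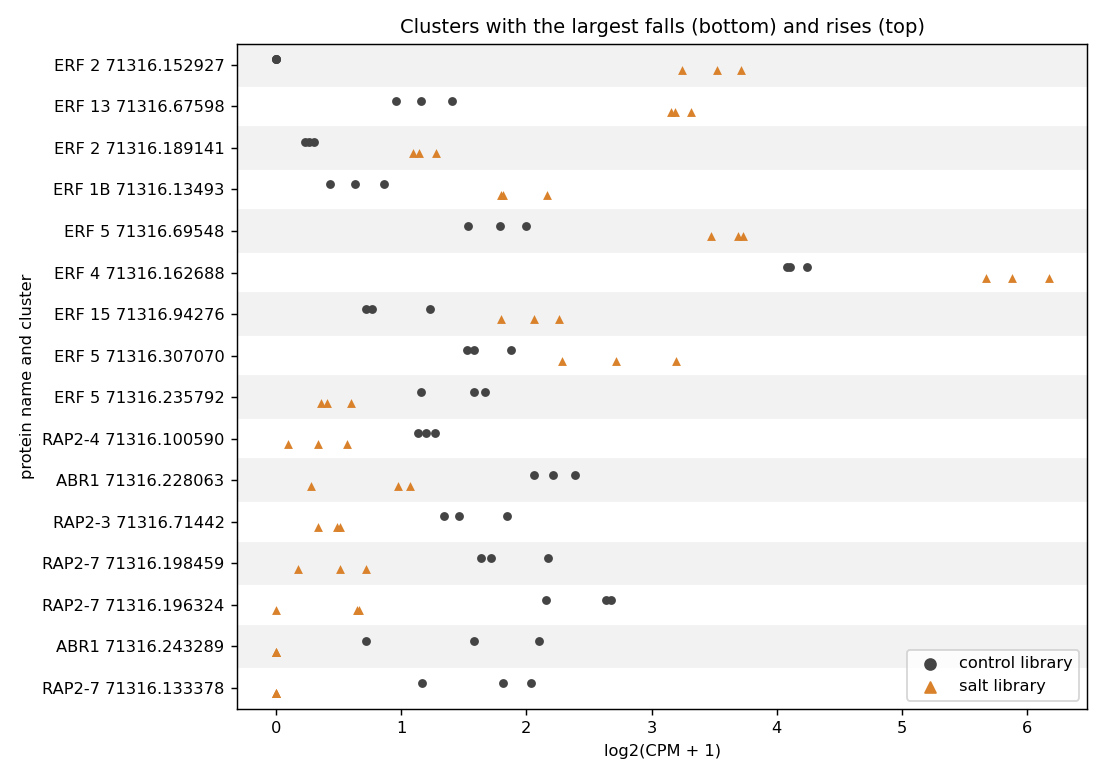
The 8 clusters with the largest falls and the 8 with the largest rises among those called, at least 2-fold changed and without overlap, by log2(CPM + 1) in each library. Grey circles are control and orange triangles salt libraries. Because only clusters without overlap were chosen, all 3 libraries of 1 group lie on the same side of the other 3. The 3 clusters that lie at 0 throughout a group could be tested only because the other group was high.

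Among the factors numbered 3, 4, 7, 8, 11 and 12, whose Arabidopsis forms carry the EAR repression motif, 9 of 32 tested clusters rose and 3 fell, with 15 and 2 under the seed plant scaling. ERF4 had 6 rises and 1 fall among 14, with 8 and 1 under the seed plant scaling. The fall was in its most abundant cluster, Cluster-71316.163695, matched to the Arabidopsis entry, with 202, 226 and 201 CPM in control and 147, 129 and 129 CPM in salt (log2 fold change -0.63, SE 0.08, edgeR adjusted p = 0.00113), and it held under the seed plant scaling (-0.25). The rises were all in clusters matched to Nicotiana entries (Nicotiana sylvestris 4 of 6 tested, Nicotiana tabacum 2 of 6). Cluster-71316.160479 had 109.6, 119 and 111 CPM and 155, 138 and 134 CPM (log2 fold change 0.33, SE 0.07, edgeR adjusted p = 0.00981), and Cluster-71316.162688 had 16, 17.9 and 16.2 CPM and 71.1, 57.7 and 50.0 CPM (log2 fold change 1.83, SE 0.14, edgeR adjusted p = 0.000230). For both, every salt library was above every control library. The summed level of ERF4 was 652 ± 36.7 CPM in control and 726 ± 70.5 CPM in salt (SD, n = 3), and the groups overlapped.

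ERF12 rose in 3 of 4 tested clusters and fell in 0, and all 4 rose under the seed plant scaling. Its leading cluster, Cluster-71316.167533, had 11.2, 13.1 and 12.9 CPM in control and 37.1, 25 and 25.3 CPM in salt, with salt 1 highest (log2 fold change 1.23, SE 0.18, edgeR adjusted p = 0.00187). It shares the Artemisia annua factor 4 as NR match with the rising ERF4 cluster Cluster-71316.162688 and 1 more, and their sum was 30.2, 32.4 and 30.2 CPM in control and 111, 84.9 and 81 CPM in salt (log2 fold change 1.57, SE 0.12, edgeR adjusted p = 6.0e-06). The leading ERF3 cluster, Cluster-71316.187952, had 126, 133 and 121 CPM and 114, 123 and 109 CPM and was not called (log2 fold change -0.13, SE 0.07, edgeR adjusted p = 0.156). It was called lower without salt 2 (-0.27, edgeR adjusted p = 0.012) and higher under the seed plant scaling (0.26, edgeR adjusted p = 0.021). The leading ERF7 cluster was not called (log2 fold change -0.31, SE 0.19, edgeR adjusted p = 0.200), and the single ERF8 cluster was too rare to test.

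The 7 ERF11 clusters share 1 NR match, and their levels jumped between libraries of the same group, with a median coefficient of variation of 43.8% in control and 95.2% in salt. Their sum was steadier. It was 27.5, 31.6 and 26.9 CPM in control and 27.2, 26.5 and 25 CPM in salt, a coefficient of variation of 8.87% and 4.38%, and was not called (log2 fold change -0.13, SE 0.09, edgeR adjusted p = 0.244). Only Cluster-71316.171598 fell on its own, from 10.2, 10.7 and 9.39 CPM to 4.95, 5.63 and 5.66 CPM (log2 fold change -0.90, SE 0.14, edgeR adjusted p = 0.00237). A like spread was seen in 11 RAP2-4 clusters matched to DREB1-3 of Chrysanthemum indicum, whose single clusters had median coefficients of variation of 86.4% and 61.8% and whose sum was 38.8, 43.7 and 39 CPM in control and 43, 35.2 and 35.3 CPM in salt (log2 fold change -0.10, SE 0.10, edgeR adjusted p = 0.395). Both sums were called higher under the seed plant scaling, at 0.26 and 0.28 on the log2 scale, and the DREB1-3 sum was called lower without salt 1 (-0.21, edgeR adjusted p = 0.018). Over the whole set, 48 NR matches were shared by 183 of the 241 members. With clusters of 1 NR match summed, 17 of 88 tested groups rose and 37 fell, against 30.5% and 39.7% over all regulators summed in that way. Under the seed plant scaling 29 rose and 27 fell, against 39% and 27.6%. These backgrounds include clusters matched outside seed plants, and a share over summed seed plant clusters alone was not computed. This summing was chosen after seeing the data.

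**Figure D3:**
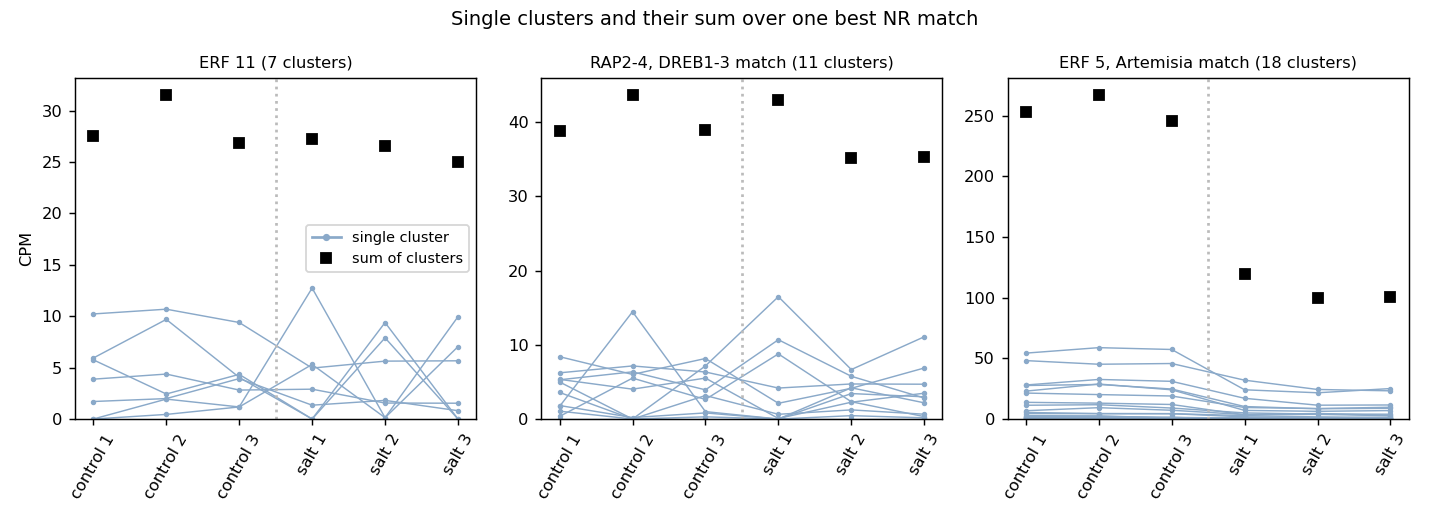
CPM of single clusters (blue lines) and of their sum (black squares) in the 6 libraries, for 3 NR matches with many clusters. ERF11 and the DREB1-3 match of RAP2-4 have single clusters that cross between libraries and a sum whose groups are close, while the ERF5 clusters of the Artemisia match go down together from 245 to 267 CPM in control to 99.6 to 119.8 CPM in salt as a sum.

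The other RAP2 names held 27 tested clusters, of which 13 fell and 1 rose, with 11 and 2 under the seed plant scaling. RAP2-7, also called TOE1, is an AP2-type repressor of flowering and a target of miR172 in Arabidopsis. Of its 8 clusters 5 were tested and fell, also under the seed plant scaling, but 4 of the 5 passed the count filter through the control libraries only. The summed level over the 8 clusters of the name was 26.5 ± 1.15 CPM in control and 8.42 ± 1.10 CPM in salt (SD, n = 3). The leading cluster, Cluster-71316.107746, had 14.3, 15 and 13.7 CPM in control and 5.31, 7.70 and 7.04 CPM in salt (log2 fold change -1.10, SE 0.16, edgeR adjusted p = 0.00206). Cluster-71316.196324 had 5.40, 5.22 and 3.46 CPM against 0.566, 0.583 and 0 CPM (log2 fold change -3.55, SE 0.79, edgeR adjusted p = 0.00945), and with the other clusters of its NR match it summed to 7.87, 7.55 and 7.51 CPM and 0.991, 0.906 and 0.647 CPM (log2 fold change -3.19, SE 0.22, edgeR adjusted p = 4.0e-06). Cluster-71316.133378 had 3.11, 1.24 and 2.52 CPM in control and 0 counts in every salt library, at least 32.1-fold lower against a floor of 3 counts over the salt group.

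RAP2-4, a DREB-type factor linked to light and drought responses in Arabidopsis, fell in 6 of 14 tested clusters and rose in 0, with 4 falls under the seed plant scaling. The 4 clusters matched to DREB1-1 of Chrysanthemum indicum all fell, and their sum was 184, 193 and 171 CPM in control and 117, 100.0 and 99.3 CPM in salt (log2 fold change -0.79, SE 0.08, edgeR adjusted p = 3.5e-05). The leading one, Cluster-71316.191414, had 49.3, 52.7 and 44.4 CPM and 35.5, 29.6 and 31.2 CPM (log2 fold change -0.60, SE 0.10, edgeR adjusted p = 0.00334), a call lost under the seed plant scaling (-0.22). The rare Cluster-71316.100590 fell from 1.41, 1.19 and 1.29 CPM to 0.0708, 0.259 and 0.485 CPM (log2 fold change -2.25, SE 0.62, edgeR adjusted p = 0.0214), and that call was lost without any 1 control library or without salt 2 (edgeR adjusted p = 0.068 to 0.078). RAP2-11, which acts in the low-potassium response of Arabidopsis roots, fell in 2 of 4 tested clusters, and 1 of the others rose under the seed plant scaling. Its leading cluster, Cluster-71316.235273, had 10.5, 10.3 and 10.1 CPM and 4.11, 3.37 and 2.75 CPM (log2 fold change -1.59, SE 0.19, edgeR adjusted p = 0.000866). The leading RAP2-10 cluster, Cluster-71316.177623, rose from 14.7, 16 and 13.3 CPM to 29.3, 18.3 and 20.2 CPM (log2 fold change 0.62, SE 0.19, edgeR adjusted p = 0.0328), with salt 1 far above the other salt libraries, and the call was lost without any 1 control library (edgeR adjusted p = 0.064 to 0.11).

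CRF proteins act downstream of cytokinin in Arabidopsis, and tomato PTI6 belongs to the same branch. Of 22 tested clusters 11 fell and 2 rose, with 9 of 23 and 3 under the seed plant scaling. CRF2 fell in 4 of 7 and rose in 0, with 4 falls and 1 rise among 8 under the seed plant scaling. Its leading cluster, Cluster-71316.238525, had 12.9, 12.8 and 12.1 CPM in control and 3.47, 3.88 and 3.72 CPM in salt (log2 fold change -1.77, SE 0.13, edgeR adjusted p = 0.000194), and the 4 clusters of its NR match summed to 26.6, 28.4 and 27.2 CPM and 8.78, 9.71 and 9.71 CPM (log2 fold change -1.54, SE 0.10, edgeR adjusted p = 2.2e-06). CRF3 rose in 2 of 3 tested clusters. The leading one, Cluster-71316.239999, had 8.11, 9.74 and 8.16 CPM and 12.5, 14.4 and 14.6 CPM (log2 fold change 0.67, SE 0.13, edgeR adjusted p = 0.00608), and the 3 CRF3 clusters, all with a CRF4-like NR match, summed to 19.1, 20.5 and 19.3 CPM and 27.9, 30.8 and 35.6 CPM (log2 fold change 0.68, SE 0.11, edgeR adjusted p = 0.000411). The summed level of CRF2 was lower in salt and that of CRF3 higher under all 5 scalings.

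PTI6, which binds GCC-box elements of defence genes in tomato, fell in 7 of 10 tested clusters and rose in 0, with 5 falls under the seed plant scaling. The summed level of the name was 56.9 ± 2.82 CPM in control and 28.3 ± 3.41 CPM in salt (SD, n = 3). The leading cluster, Cluster-71316.184229, had 15, 15.5 and 14.5 CPM in control and 10.8, 9.39 and 6.23 CPM in salt (log2 fold change -0.76, SE 0.20, edgeR adjusted p = 0.0188), and that call was lost under the seed plant scaling and without any 1 control library (edgeR adjusted p = 0.052 to 0.063). Cluster-71316.154960 had 14.2, 17.1 and 18 CPM and 7.43, 4.40 and 6.80 CPM (log2 fold change -1.40, SE 0.22, edgeR adjusted p = 0.00239) and also fell under the seed plant scaling (-1.02). The single tested clusters of CRF1 and CRF4 were not called (log2 fold change -0.12, SE 0.14, edgeR adjusted p = 0.490 for CRF4), and CRF1 was at 0 in 1 library of each group.

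**Figure D4:**
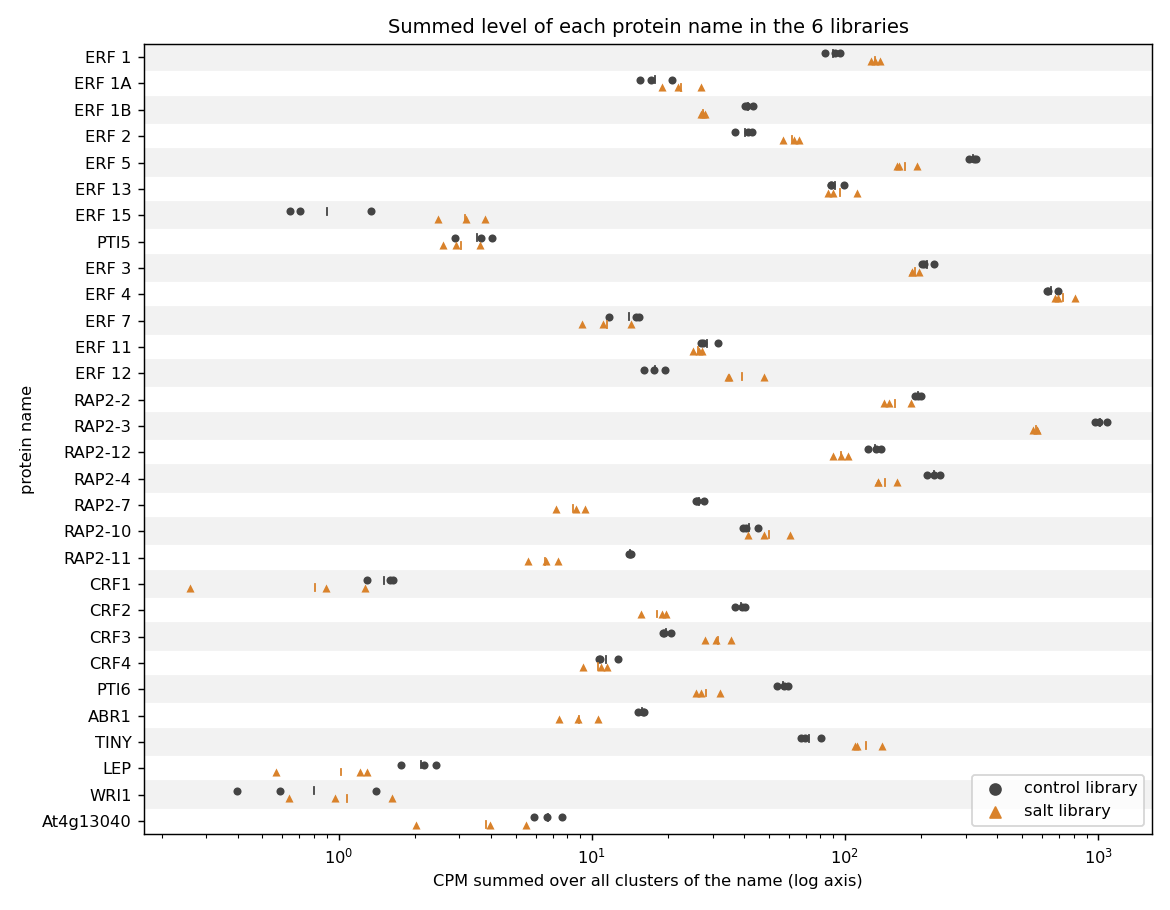
Summed CPM of all clusters of each protein name, on a log axis, in the 3 control libraries (grey circles) and the 3 salt libraries (orange triangles), with short bars at the group means. Of the 30 names with a tested cluster, 10 have a higher salt mean and 13 a lower one under all 5 scalings compared, and the direction of 7 depends on the scaling. As drawn, under the scaling on all clusters, the control and salt libraries of ERF1A, ERF4, RAP2-10 and WRI1 overlap among the 10. Those of the 13 do not. Overlap under the other scalings was not computed. Of single tested regulators, 39.8% had every salt library below every control library, and 27.4% had every one above. No such share was computed for sums. A shared direction over scalings does not measure the spread between libraries.

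The remaining names were mostly rare. ABR1, a repressor of abscisic acid responses in Arabidopsis, fell in 3 of 6 tested clusters, 1 of them under the seed plant scaling, where 5 were tested. The match was weak for the named ABR1 clusters, with Swiss-Prot scores of 181 to 182 against a median of 323 over the members, and NR matches to the factors ERF113 and ERF114. Cluster-71316.243289 had 2.00, 0.646 and 3.29 CPM in control and 0 counts in every salt library, at least 27.6-fold lower against the floor of 3 counts, and it did not pass the count filter under the seed plant scaling or without control 1 or control 3. Cluster-71316.228063 had 3.17, 3.63 and 4.23 CPM and 0.212, 1.10 and 0.971 CPM (log2 fold change -2.26, SE 0.55, edgeR adjusted p = 0.0132). The leading ABR1 cluster, Cluster-71316.277492, fell (log2 fold change -0.93, SE 0.31, edgeR adjusted p = 0.0403), a call that was lost when any 1 library other than salt 1 was left out (edgeR adjusted p = 0.056 to 0.12). The 3 ABI4 clusters were too rare to test.

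TINY, a DREB-type factor of drought and growth control in Arabidopsis, rose in 1 of 3 tested clusters and fell in 0, with 2 rises under the seed plant scaling. The leading cluster, Cluster-71316.171458, had 61.1, 72.1 and 63 CPM in control and 126, 103 and 105 CPM in salt (log2 fold change 0.77, SE 0.11, edgeR adjusted p = 0.00170), with a NR match to a dehydration-responsive element-binding protein 3. The single LEP cluster tested, named for a leaf petiole factor, has a dehydrogenase as NR match and a fall (log2 fold change -1.30, SE 0.45, edgeR adjusted p = 0.0468) that was lost under the seed plant scaling and without any 1 library except salt 3 (edgeR adjusted p = 0.054 to 0.18). WRI1, a regulator of seed oil synthesis, was not called (log2 fold change 0.44, SE 0.62, edgeR adjusted p = 0.571). The leading cluster of the At4g13040-like name was not called (log2 fold change -0.36, SE 0.43, edgeR adjusted p = 0.504), while 1 of its 3 tested clusters fell.

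Per kilobase of cluster, for clusters of at least 500 bases, the order of the members at the top changed between the groups. In control the RAP2-3 cluster Cluster-71316.163378 led, with 657 ± 20.8 FPKM in control and 269 ± 16.9 FPKM in salt (SD, n = 3). The RAP2-3 cluster Cluster-71316.162522 followed, with 569.6 ± 4.46 FPKM in control and 344 ± 20.5 FPKM in salt. The control values of the pair did not overlap, and the order was reversed in salt, where they did not overlap either. The ERF4 cluster Cluster-71316.163695 came next, with 478 ± 13.1 FPKM in control and 285 ± 23.6 FPKM in salt, and its salt range overlapped that of Cluster-71316.163378. The ERF13 cluster Cluster-71316.145740, the TINY cluster Cluster-71316.171458 and the RAP2-2 cluster Cluster-71316.164587 had 202, 198 and 186 FPKM in control. The ranges of ERF13 and TINY overlapped there, as did those of TINY and RAP2-2. In salt TINY had 312 ± 39.7 FPKM, above the ERF13 and RAP2-2 clusters in every library.

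Of 11 clusters matched to ethylene receptors, EIN3 and EIN3-like proteins, 10 were tested, 6 fell (60%) and 1 rose (10%). The background was 29.6% lower and 23.8% higher over all regulators, and 34% and 14.9% over those with a seed plant match. Under the seed plant scaling 4 fell (40%) and 2 rose (20%), against 22.4% and 22% of regulators with a seed plant match. The difference of this small list from the background was not tested. The leading EIN3 cluster, Cluster-71316.180821, had 192, 207 and 179 CPM in control and 115, 107 and 112 CPM in salt (log2 fold change -0.79, SE 0.07, edgeR adjusted p = 0.000358), and Cluster-71316.149898 had 151, 159.6 and 145 CPM and 94.2, 83.2 and 78.5 CPM (log2 fold change -0.83, SE 0.08, edgeR adjusted p = 0.000556). The EIN3 cluster Cluster-71316.149901 also fell (log2 fold change -0.72, SE 0.06, edgeR adjusted p = 0.000371). Of the receptor clusters, Cluster-71316.167670, named for ethylene receptor 2, fell from 47, 45.8 and 46.4 CPM to 22, 22.1 and 22.7 CPM (log2 fold change -1.06, SE 0.07, edgeR adjusted p = 0.000111), while Cluster-71316.193731 of the same name rose from 1.06, 1.59 and 0.646 CPM to 9.98, 5.70 and 3.96 CPM (log2 fold change 2.56, SE 0.48, edgeR adjusted p = 0.00460). The last 2 clusters were named after their values were seen. Among 38 tested clusters of cytokinin response regulators 13 fell (34.2%) and 5 rose (13.2%), near the 34% and 14.9% of the seed plant regulators, and under the seed plant scaling 10 fell and 6 rose.

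**Figure D5:**
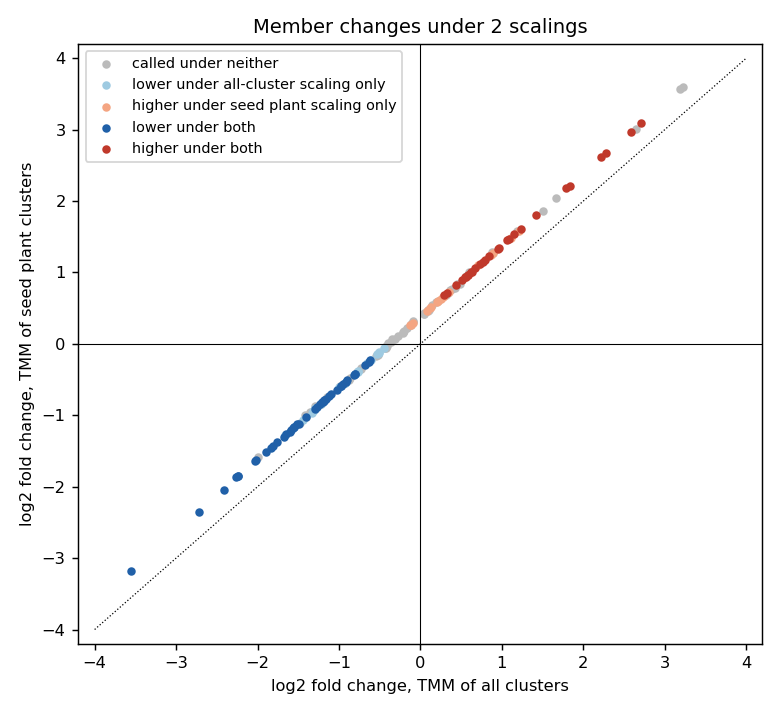
Log2 fold change of 170 tested members under the scaling on all clusters (horizontal) and on regulator clusters with a seed plant match (vertical). The line of equality is dotted. Dark blue and red points, 44 and 28, were called alike under both, 19 light blue points fell under the first only and 17 light red points rose under the second only, and all points lie above the line.

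In the authors' deposited table, 15 of the 241 members were marked UP and 37 DOWN, against 13.5% and 10.2% of all regulators. The members' shares were 6.22% and 15.4%, near the 7.42% and 13% of regulators with a seed plant match in the authors' deposited table. Of these, 14 and 36 were tested with edgeR, each was called in the same direction and 0 in the opposite one.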

How the data were processed

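RNA of 6 root libraries, 3 control and 3 salt, was measured with Illumina TruSeq libraries, per the labels' protocols. Bowtie2 2.0.6 and TopHat2 2.0.12 are named, with no role, in the submitters' processing notes. For assembly, counting and annotation, the tool is not given in the sources used here. Deposited expected counts of 10744 regulator clusters (49.3% not whole) stand beside FPKM, and the authors also deposited FPKM of 469059 clusters. The authors' log2 ratios, q-values and calls are in the same deposited table, as are the authors' Swiss-Prot match scores. No reference genome was used here.

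Since only regulators have counts, depth was recovered from the slope of count over FPKM against length, over clusters of at least 200 counts and 1000 bases. It was 16.2, 20.1 and 15.9 M fragments in control and 14.7, 16.1 and 12.8 M in salt. The main test was the quasi-likelihood F-test of edgeR 4.0.16 in R 4.3.3 on rounded counts, without a block. Library size was depth times TMM factors of the FPKM of all clusters, the filter was filterByExpr, and Benjamini-Hochberg adjustment covered all 5284 tested regulators. The seed plant scaling took TMM factors from the FPKM of only the 8219 regulator clusters with a seed plant match. The SE is the one implied by the F statistic. FPKM were tested with limma 3.58.1 on log2(FPKM + 1) as an alternative, for clusters reaching 1 FPKM in 3 libraries or more. Other alternatives were DESeq2 1.42.0, other scalings, no filter, a pseudocount of 0.1, a replicate block and leaving out each library. Bounds for clusters at 0 use a floor of 3 counts over the group, for counting error only. Replicates are biological per the labels, which name no separate cultures, so p-values reflect the spread between these libraries.

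The named clusters are, for each protein name, the tested cluster with the highest mean CPM, and the 8 largest rises and 8 largest falls among called clusters that changed at least 2-fold without overlap, 45 in all. From the upstream list they are the 3 with the highest mean CPM. Other clusters in the text illustrate a group or a shared NR match and were chosen after their values were seen. The members, lists and tests were chosen with earlier results of these data known. The test code was tested on simulated data.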

Additional observations from a re-analysis of the deposited data

How the results depend on the processing

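Members higher and lower numbered 29 and 65 of 175 tested. They were 42 and 50 of 173 under DESeq2 size factors, 26 and 68 of 174 with depth alone, and 32 and 59 of 174 with column sums. Of 231 tested, they were 27 and 60 without a filter and 43 and 54 with DESeq2. With limma they were 21 to 25 and 63 to 66, of 171 tested, or 233 without a filter. The scaling on regulator clusters with a seed plant match gave 47 higher and 45 lower of 173. Summing clusters by NR match, an alternative chosen after seeing the data, gave 17 higher and 37 lower of 88, and 29 and 27 when also scaled on seed plant clusters. Among all regulators, 1255 rose and 1564 fell of 5284 tested. DESeq2, which tested more of them, gave 2332 higher and 1465 lower of 10415. The seed plant scaling gave 1648 higher and 1023 lower of 5301. Of the members' calls 30.8% were higher, against 45.7% under DESeq2 size factors, 51.1% under the seed plant scaling and 44.3% with DESeq2.

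The median log2 fold change of the members was -0.41. It was -0.08 under DESeq2 size factors, -0.52 with depth alone, -0.30 with column sums, -0.07 with DESeq2, -0.54 with limma on log2(FPKM + 0.1) and -0.23 with limma without a filter. It turned to 0.02 under the seed plant scaling, which moved the leading ERF3 and RAP2-2 clusters to 0.26 and 0.27. These medians moved with those of all regulators, which shifted by 0.31, -0.13, 0.11, 0.47, -0.19, 0.27 and 0.42 in the same order. The shifts of 0.47 (DESeq2) and 0.27 (limma without a filter) are over 10415 and 10428 regulators. They thus include rarer clusters that the main test left out.

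Leaving out 1 library gave 24 to 27 members higher, 47 to 69 lower and medians from -0.51 to -0.23, the last without control 2. With the replicate number as a block, 23 members were higher and 49 lower. Libraries of the same number deviated together at r = 0.028, 0.037 and 0.0023 over 5284 clusters, so the numbers do not pair them, and not every library correlated best with its own number. Depth limits the 66 untested members, and 3 libraries per group limit the rest. Sharing of reads between clusters was not measured.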

Other observations

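Clusters matched to MBF1, a family of transcriptional coactivators, held 6 that rose (60%) and 1 that fell (10%) among 10 tested. The background was 23.8% higher and 29.6% lower over all regulators, and 14.9% and 34% over those with a seed plant match. Under the seed plant scaling 9 of 12 rose and 0 fell. The shares there were 31.1% and 19.3% over all regulators, and 22% and 22.4% over those with a seed plant match. The MBF1 list was not limited to seed plant matches, and clusters matched outside seed plants took more of the regulator counts in salt. Whether the rising MBF1 clusters are of plant origin was not tested. The summed level of the 21 MBF1 clusters was 157.5 ± 7.49 CPM in control and 160.1 ± 7.66 CPM in salt (SD, n = 3), and the groups overlapped. The most abundant MBF1 cluster, Cluster-71316.168160, fell by 0.18 on the log2 scale (edgeR adjusted p = 0.0461), and the direction turned to 0.21 under the seed plant scaling. The rising ones were rare in control, such as Cluster-71316.287696 with 4.70, 3.98 and 3.46 CPM in control and 9.55, 13.2 and 17.1 CPM in salt (log2 fold change 1.71, SE 0.25, edgeR adjusted p = 0.00189). These clusters were named after their values were seen.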
